A study of Homo sapiens with 2 samples.

Results

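The cadherins and protocadherins measured here were 163 of the 45033 features on the array, which stood for 92 of 23619 genes. They were chosen by name alone, as every feature of both arrays whose gene was called CDH followed by a number, or PCDH, in the array's own annotation. The set held 5 classical cadherins with 9 features, 13 type II cadherins with 27 features, and 5 other CDH genes with 15 features. It also held 14 non-clustered protocadherins with 33 features (CDHR1, called PCDH21 on the array, is one of them), 15 PCDHA genes with 21 features, 18 PCDHB genes with 29 features and 22 PCDHG genes with 29 features. Each feature was read by 3 probes, and 51 of the genes had more than 1 feature. Total RNA came from TE-1, an established line of human oesophageal squamous carcinoma. One sample of cells had received pcDNA3.1-PAX2, a plasmid that carries the paired-box transcription factor PAX2, and the other had received pcDNA3.1 without it. RNA was taken 24 h after transfection in both and read on a Cy3 NimbleGen array. With a single array per condition, none of the differences reported has been checked against replicates, and the conditions could not be tested. The share of cells that took up the plasmid is not given in the labels.

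Cadherins are calcium-dependent adhesion molecules. The classical ones hold epithelial or neural cells together at adherens junctions, and their tails bind the actin cytoskeleton through the catenins. Type II cadherins share that tail but recognise other partners, and many are best known from neurons. The clustered protocadherins lie in the PCDHA, PCDHB and PCDHG gene clusters on chromosome 5. There each variable exon has its own promoter, which CTCF and cohesin connect to distant enhancers, so that single neurons express different combinations and recognise their own processes. PAX2 is known from kidney and urogenital development, where epithelia form from mesenchyme.

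The feature of PAX2 itself (NM_000278) had an intensity of 22.1 on the PAX2-labelled array, against 22.2 on the control array, a log2 difference of -0.01. Both values were near those of the 5000 random-sequence probes, 19.3 on the PAX2-labelled array and 20.6 on the control array. Overexpression therefore did not show at this feature, and where its probes lie on the transcript is not given in the sources used here. For that reason the array is called PAX2-labelled throughout. Median intensity over all features was 210 on the PAX2-labelled array and 205 on the control array, and the median gene differed by 0.01 on the log2 scale. Of 8 squamous markers 4 (KRT5, KRT14, KRT17 and SFN) were at or above the median feature, while KRT6A, TP63, PKP1 and DSG3 were below it. Summed squamous marker intensity was 47045 on the PAX2-labelled array and 38120 on the control array. Most of that sum was SFN alone, with 37724 (PAX2-labelled) and 30484 (control). KRT5, KRT14, KRT17, TP63 and SFN read higher on the PAX2-labelled array. KRT6A, PKP1 and DSG3 read lower, with log2 differences of -0.40, -0.82 and -0.73. Of 3 simple epithelial markers, the keratins KRT8 and KRT18 passed with differences of 0.29 and 0.21, while EPCAM read 114 on the PAX2-labelled array and 141 on the control array, a difference of -0.30. All 5 leukocyte and all 5 endothelial markers lay within the range of silent genes described next. Of 6 fibroblast markers 3 lay above it on at least 1 array, and their summed intensity was 1919 on the PAX2-labelled array and 1515 on the control array. The part of these marker levels in the cadherin values was not tested.

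Most of these genes lay within the range of genes taken as silent. The files hold no detection call, so the range of 376 olfactory receptor genes, which epithelial lines mostly leave silent, served as the measure. Its 95th percentile was an intensity of 142 on the PAX2-labelled array and 134 on the control array (log2 7.15 on the PAX2-labelled array and 7.07 on the control array). Of the 163 features, 139 lay within this range on both arrays, 7 on exactly 1 array, and 17 lay above it on both. At least 1 array was above the range for 24 features, 14.7%, whereas 58.3% of all features on the array were. By genes, after averaging the features of each, the count was 11 of 92, beside 55.4% of all genes. That count depends on the limit, with 5 genes above the 99th percentile and 37 above 2 times the random-sequence probes. Of the 92 genes 19 had at least 1 feature above the range. They were 8 of 18 PCDHB genes, 5 of 14 non-clustered protocadherins, 3 of 13 type II cadherins, 2 of 5 classical cadherins and 1 of 5 other CDH genes. None of the 15 PCDHA and none of the 22 PCDHG genes had one. Intensity depends on a feature's probes as well as on its transcript, so values are compared here between arrays and not as amounts of different transcripts.

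**Figure D1:**
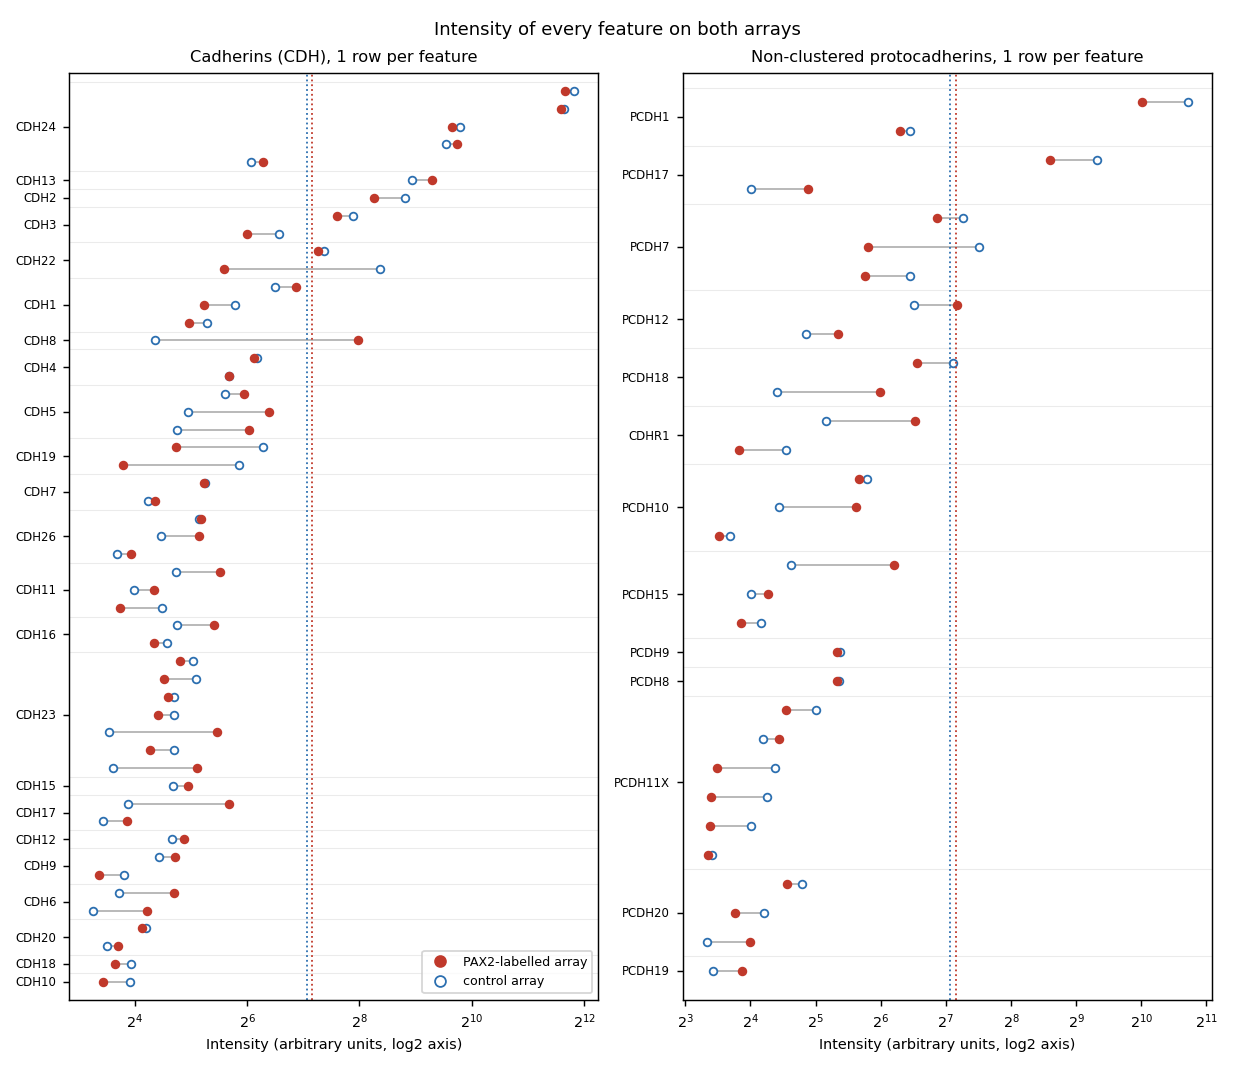
Intensity of every feature of the CDH genes (left) and of the non-clustered protocadherins (right) on a log2 axis, with filled red points for the PAX2-labelled array, open blue points for the control array and dotted lines at the top of the silent range on each array. Most features lie left of the lines on both arrays, and the long bars of CDH8 and CDH22 cross them.

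Cadherin and protocadherin genes that were bright by their mean over features and arrays differed by less than 2-fold. A gene was kept when its mean log2 intensity over both arrays reached that of the median feature, an intensity of 203, and 7 of the 92 genes were. These were CDH24, CDH13, CDH2, PCDH1, PCDHB3, PCDHB5 and PCDHB16. None of the 7 differed 2-fold. Of all 11242 genes that passed, 0.658% reached 2-fold upwards and 0.596% downwards, 1.25% in either direction. The 7 genes that lay above the silent range on both arrays were the same ones, and 1.03% of all such genes passed 2-fold. Of the 7, 4 were above 0 and 3 below 0. Without the filter 4 of 92 genes reached 2-fold upwards, beside 3.21% of all genes, and 7 downwards, beside 4.09%. Together these were 11 of 92 genes, beside 7.29%. Of these 11 genes, CDH8 and CDH22 had a feature above the silent range on at least 1 array and the others had none. With a filter that needs the median feature on 1 array only, CDH8 counted as higher, beside 1.13% of all genes, and CDH22 as lower, beside 1.16%. The main filter can thus leave out genes that are bright on 1 array, and averaging mixes bright features with dim ones. As genes, PCDH17 and PCDHB7 differed by 0.08 and 0.13 on the log2 scale, while their bright features differed by -0.72 and -0.47.

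Of the classical cadherins, E-cadherin stayed within the silent range. CDH1, the cadherin of epithelial adherens junctions, has 3 features on HG18 chromosome 16 (67328695 to 67426945). AB025105 read 117 on the PAX2-labelled array and 90.8 on the control array, AB025106 read 37.6 (PAX2-labelled) and 54.8 (control), and NM_004360 read 31.1 (PAX2-labelled) and 38.9 (control). All 3 lay within the silent range on both arrays, and they differed in sign. Their mean was 51.6 (PAX2-labelled) and 57.8 (control), above the random-sequence probes at 19.3 (PAX2-labelled) and 20.6 (control). A place within the range therefore does not show that CDH1 RNA was absent. N-cadherin was the classical cadherin with the largest difference above the range. CDH2, which mesenchymal and neural cells use, has 1 feature (NM_001792, HG18 chromosome 18, 23784932 to 24011189). It read 307 on the PAX2-labelled array and 451 on the control array, which is 1.47-fold lower (log2 difference -0.56). In RNA of a whole culture, fewer cells that express a gene and less RNA per cell cannot be told apart. P-cadherin read lower in both of its features. CDH3, found in basal layers of stratified epithelia, read 193 on the PAX2-labelled array and 235 on the control array with NM_001793, a log2 difference of -0.29. Its other feature, BC041846, read 63.6 (PAX2-labelled) and 94.6 (control), within the silent range on both. R-cadherin, CDH4, a retinal and neural cadherin, read 69.8 (PAX2-labelled) against 72.2 (control) and 51.3 (PAX2-labelled) against 51.1 (control). M-cadherin, CDH15, the cadherin of muscle precursors, read 30.8 (PAX2-labelled) against 25.8 (control). The control array was thus the brighter one in both classical cadherin features above the silent range, while the median over all 5 genes was -0.17.

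The upstream sequence of CDH2 is shown because its feature carries that difference. The RefSeq promoter table (GRCh38.p14) held an entry for 71 of the 92 genes, and this one covers the 250 bases before the first of 2 listed starts. The letters CACCTG, bound by the Snail and ZEB repressors of CDH1, were searched on both strands, and neither they nor GTCACGC, the core of paired-domain sites, occur in it.
CDH2 (chr18:28177131-28177380, minus strand): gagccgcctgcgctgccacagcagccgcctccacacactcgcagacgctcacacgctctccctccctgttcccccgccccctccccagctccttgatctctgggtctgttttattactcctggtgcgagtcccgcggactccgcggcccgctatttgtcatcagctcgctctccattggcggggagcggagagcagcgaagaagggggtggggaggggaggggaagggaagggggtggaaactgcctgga

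Among the type II cadherins, CDH24 was bright on both arrays and hardly differed. CDH24 binds beta- and alpha-catenin like the classical cadherins. Of its 5 features on HG18 chromosome 14 (22586118 to 22596523), AK025342 read 3215 on the PAX2-labelled array and 3625 on the control array. AL137477 read 3067 (PAX2-labelled) and 3189 (control), NM_022478 800 (PAX2-labelled) and 887 (control), and NM_144985 848 (PAX2-labelled) and 745 (control). These 4 bright features ranged from -0.17 to 0.19 on the log2 scale, 3 of them below 0. The remaining feature, AK057922, lies in the same gene but read only 78.1 (PAX2-labelled) and 67.4 (control).

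Large computed differences occurred in single features of CDH8 and CDH22, each within the silent range on 1 array. CDH8, a neuronal cadherin of synapses, has 1 feature (NM_001796, HG18 chromosome 16, 60244735 to 60627537). It read 250 on the PAX2-labelled array and 20.5 on the control array. The computed difference was 3.61 on the log2 scale, but the control value lies in the silent range, and the measured statement is that CDH8 was at least 1.86-fold higher. CDH22, another brain cadherin, read lower in both of its features, by very different amounts. NM_021248 (HG18 chromosome 20, 44235782 to 44313741) read 48.3 on the PAX2-labelled array and 331 on the control array, at least 2.32-fold lower. BC031232, which covers 44271874 to 44282895 of the same gene, read 154 (PAX2-labelled) and 166 (control), a log2 difference of -0.10. The features of CDH22 thus differed in size and not in sign.
CDH8 (chr16:62036439-62036688, minus strand): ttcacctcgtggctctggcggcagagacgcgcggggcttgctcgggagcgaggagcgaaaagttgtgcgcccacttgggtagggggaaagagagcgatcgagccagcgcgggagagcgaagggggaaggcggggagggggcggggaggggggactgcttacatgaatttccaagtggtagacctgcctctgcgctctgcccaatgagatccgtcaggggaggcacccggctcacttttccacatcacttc
This is the stretch before one of the 2 listed CDH8 starts, shown because the gene had the largest computed increase. Neither CACCTG nor GTCACGC occurs in it on either strand.

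The other type II cadherins were dim on both arrays. VE-cadherin, CDH5, the cadherin of endothelial junctions, read 83.5 on the PAX2-labelled array and 30.7 on the control array with NM_001795. Its other features read 61.9 (PAX2-labelled) against 49.0 (control) and 65.5 (PAX2-labelled) against 27.1 (control), so all 3 were higher, and all lay within the silent range. The summed intensity of the 5 endothelial markers, all within the silent range, was 244 on the PAX2-labelled array and 172 on the control array. CDH5 itself is in that sum, with a mean over its features of 69.7 (PAX2-labelled) and 34.4 (control). TEK and KDR also read higher, and PECAM1 and VWF lower, with log2 differences of -0.51 and -0.16. CDH19, known from Schwann cell precursors, read lower in both features, with 26.6 (PAX2-labelled) against 78.2 (control) and 13.8 (PAX2-labelled) against 58.1 (control). These also lay within the silent range, where values have no order. CDH6, a kidney cadherin, read 25.9 (PAX2-labelled) against 13.3 (control) and 18.5 (PAX2-labelled) against 9.58 (control). CDH11, a mesenchymal cadherin of osteoblasts, read 45.9 (PAX2-labelled) against 26.5 (control) with NM_001797, 20.3 (PAX2-labelled) against 15.8 (control) with D21255 and 13.4 (PAX2-labelled) against 22.3 (control) with BC013609, so its features differed in sign. The features of CDH7, CDH9, CDH10, CDH12, CDH18 and CDH20 read at most 37.6 on the PAX2-labelled array and 38.2 on the control array.

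Of the 5 other CDH genes only CDH13 was above the silent range. CDH13, or T-cadherin, lacks the catenin-binding tail and is held in the membrane by a lipid anchor. Its feature (NM_001257, HG18 chromosome 16, 81218078 to 82387702) read 624 on the PAX2-labelled array and 488 on the control array, which is 1.28-fold higher (log2 difference 0.36). CDH16, the kidney-specific cadherin, read 42.8 (PAX2-labelled) against 27.0 (control) and 20.4 (PAX2-labelled) against 23.8 (control), within the silent range. CDH17, the liver-intestine cadherin, read 51.5 (PAX2-labelled) against 14.7 (control) and 14.5 (PAX2-labelled) against 10.8 (control), also within it. CDH23, which forms the tip links of hair cells with PCDH15, had 7 features of which 2 were above 0 by more than 1 and 5 were below 0. None of the 7 exceeded 44.3 on either array, and none of the 3 CDH26 features exceeded 36.0 on either.

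Among the non-clustered protocadherins, the bright features of PCDH1 and PCDH17 were both lower. PCDH1 is an epithelial protocadherin, best known from airway cells. Its feature NM_002587 (HG18 chromosome 5, 141222400 to 141238128) read 1034 on the PAX2-labelled array and 1681 on the control array, 1.63-fold lower (log2 difference -0.70). The longer NM_032420, from 141212855 to the same end, read 78.9 (PAX2-labelled) and 87.6 (control), within the silent range. PCDH17, a protocadherin whose promoter has been reported methylated in carcinomas, read 388 on the PAX2-labelled array and 638 on the control array with BC028165. That feature was 1.65-fold lower (log2 difference -0.72), whereas NM_014459 read 29.5 (PAX2-labelled) and 16.1 (control), within the silent range. These 2 features had the largest differences among the 17 above the silent range on both arrays. PCDH7, broadly expressed in brain and heart, read lower in all 3 features. NM_032457 read 55.9 on the PAX2-labelled array and 183 on the control array, at least 1.29-fold lower. NM_032456 read 116 (PAX2-labelled) and 154 (control), and NM_002589 read 54.0 (PAX2-labelled) and 87.1 (control). PCDH12, an endothelial protocadherin, read 144 (PAX2-labelled) against 91.5 (control) in one feature and 40.7 (PAX2-labelled) against 28.9 (control) in the other. PCDH18 read 94.6 (PAX2-labelled) against 137 (control) and 63.7 (PAX2-labelled) against 21.2 (control), so its features differed in sign. CDHR1, a cadherin of photoreceptors, also had features that differed in sign, with 91.8 (PAX2-labelled) against 35.8 (control) and 14.1 (PAX2-labelled) against 23.4 (control). The features of PCDH10, PCDH11X and PCDH15 read at most 74.0 on the PAX2-labelled array and 55.2 on the control array. Those of PCDH8, PCDH9, PCDH19 and PCDH20, best known from brain, read at most 40.4 on the PAX2-labelled array and 41.6 on the control array. The upstream sequence of PCDH1 holds CACCTG once, read as CAGGTG on the strand printed and given in capitals.
PCDH1 (chr5:141869628-141869877, minus strand): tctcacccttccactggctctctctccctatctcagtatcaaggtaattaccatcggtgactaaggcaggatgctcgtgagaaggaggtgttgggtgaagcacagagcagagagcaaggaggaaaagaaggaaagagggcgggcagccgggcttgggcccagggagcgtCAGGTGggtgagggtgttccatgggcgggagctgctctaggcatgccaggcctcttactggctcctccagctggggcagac
Over the 71 genes with an entry, CACCTG occurred in 8 (CDH4, CDH23, PCDH1, PCDH15, PCDHB1, PCDHGA2, PCDHGA11 and PCDHGB6), and in 20.6% of the 35116 promoters of the table, counted over 300 bases. GTCACGC occurred in 2 (CDHR1 and PCDH9), and in 2.52% of all promoters. Here and below, the figures for cadherins and protocadherins count genes, some with more than 1 listed start. The percentages of the table count single promoters, so the units differ. A match is a description of the letters and not a bound site.

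**Figure D2:**
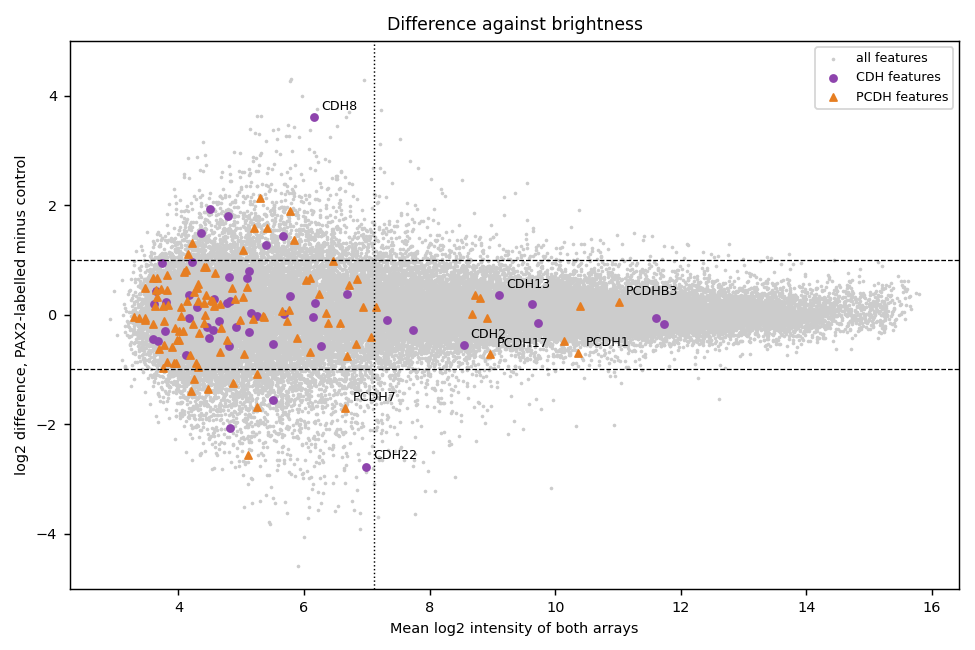
Log2 difference, PAX2-labelled minus control array, against mean log2 intensity of both arrays for all features (grey), CDH features (purple circles) and PCDH features (orange triangles), with dashed lines at 2-fold and a dotted line at the mean top of the silent range. The CDH and PCDH features past 2-fold lie left of the dotted line, and the 17 of them above the silent range on both arrays lie between -0.72 and 0.36.

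Of the 163 features, 15 reached 2-fold upwards, beside 4.87% of all features, and 11 downwards, beside 5.04%. Together they made 16.0%, beside 9.9%. The share changed with brightness. Of the 139 within the silent range on both arrays 23 (16.5%) passed 2-fold, beside 17.4% of all such features, and of 401 olfactory receptor features 19.7% did. Of the 7 within the range on 1 array 3 passed, those of CDH8, CDH22 and PCDH7, or 42.9% beside 37.0%. None of the 17 above the range on both arrays passed, beside 1.54% of all such features. The 17 bright features ranged from -0.72 to 0.36, with 7 above 0, 10 below 0 and a median of -0.07. The log2 intensities of the 2 arrays correlated with r = 0.895 over the 163 features and r = 0.961 over the 17 bright ones, beside 0.978 over all features of the array. These correlations are across features of the same 2 arrays, which are not independent replicates.

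Of the 3 protocadherin clusters, PCDHB alone had features above the silent range. On HG18 chromosome 5 the PCDHA features cover 140146059 to 140372113, the PCDHB features 140411162 to 140607986, and the PCDHG features 140690387 to 140872730. The PCDHA features ranged from 10.7 to 124 on the PAX2-labelled array and from 11.3 to 134 on the control array, and the PCDHG features from 9.67 to 126 on the PAX2-labelled array and from 9.61 to 87.0 on the control array. The top of these ranges was PCDHAC2 on the PAX2-labelled array and PCDHA1 on the control array for PCDHA, and PCDHGA9 on both for PCDHG. PCDHA1, at 134.1, lay just within the silent limit of 134.3 on the control array. In PCDHB the feature of PCDHB3 reached 2231 on the PAX2-labelled array and 1908 on the control array. The PCDHA transcripts share their last exons, as do the PCDHG transcripts, and 3 features have an annotated span that reaches the far end of the alpha cluster. They were BC033735 of PCDHA5, with 106 on the PAX2-labelled array and 28.4 on the control array, BC104802 of PCDHA9, with 20.1 (PAX2-labelled) and 22.4 (control), and NM_018898 of PCDHAC1, with 14.3 (PAX2-labelled) and 27.7 (control). All were within the silent range on both arrays. NM_002588 of PCDHGC3, which reaches the end of the gamma cluster, read 22.2 (PAX2-labelled) and 13.0 (control).

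**Figure D3:**
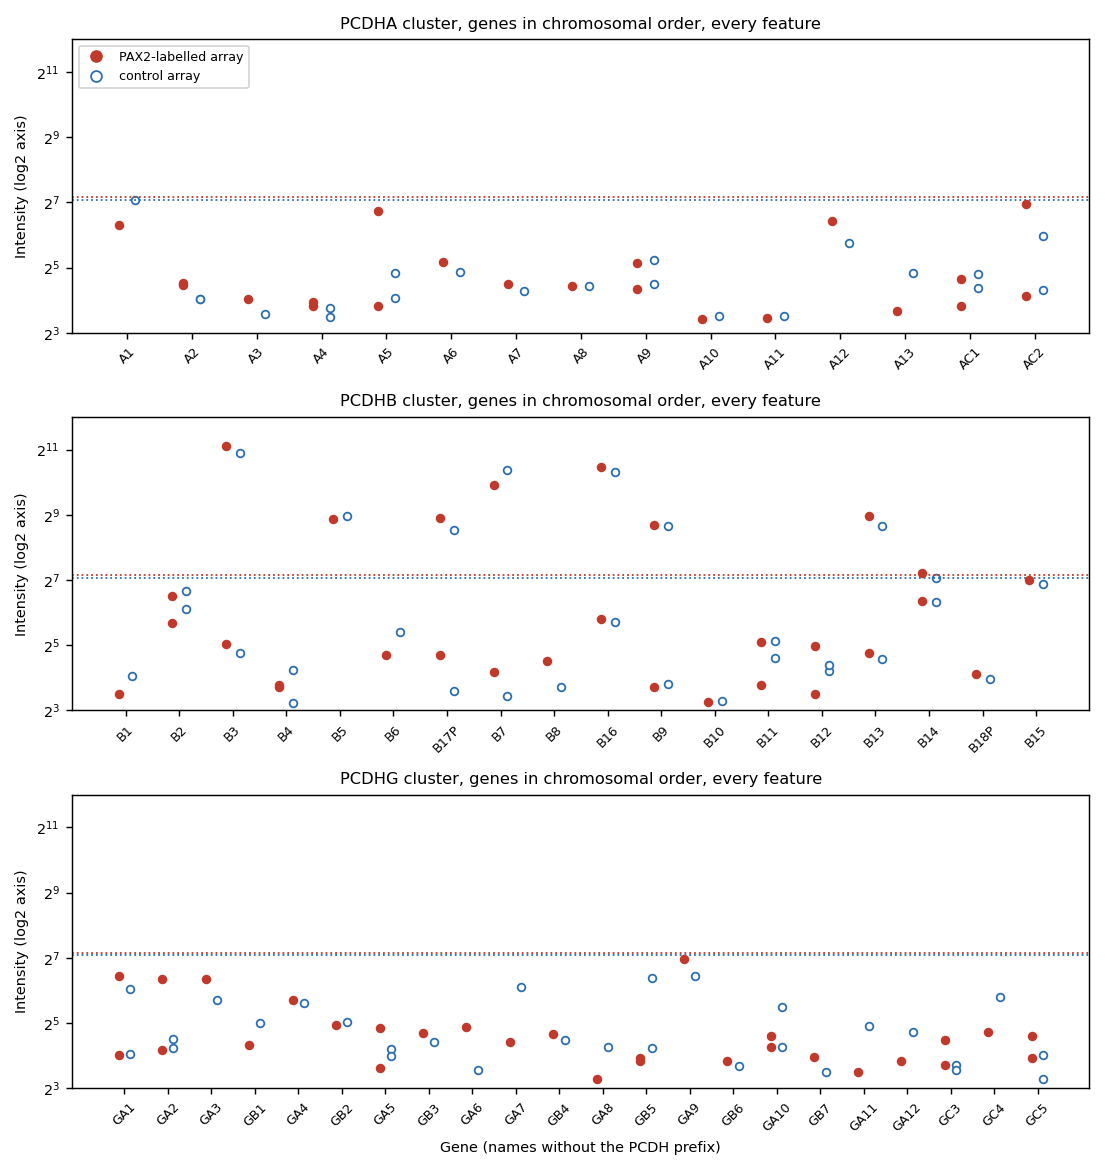
Intensity on a log2 axis of every feature of the PCDHA (top), PCDHB (middle) and PCDHG (bottom) genes in chromosomal order, with filled red points for the PAX2-labelled array, open blue points for the control array and dotted lines at the top of the silent range. Points above the lines on both arrays occur in the middle panel only, in PCDHB3, PCDHB5, PCDHB7, PCDHB9, PCDHB13, PCDHB16 and PCDHB17P.

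The bright PCDHB features differed little between the arrays. PCDHB proteins lack the shared intracellular tail of the alpha and gamma proteins. PCDHB3 (BC104817) read 2231 on the PAX2-labelled array and 1908 on the control array, a log2 difference of 0.23. PCDHB16 (BC036062) read 1416 (PAX2-labelled) and 1267 (control), a difference of 0.16. PCDHB7 (BC098574) read 960 (PAX2-labelled) and 1333 (control), a difference of -0.47, which was the largest among the bright features of the cluster. The first 2 were thus a little higher on the PAX2-labelled array and the third lower. PCDHB13 (BC033068) read 499 (PAX2-labelled) against 404 (control), and the pseudogene PCDHB17P (AF152527) 481 (PAX2-labelled) against 374 (control). PCDHB5 (NM_015669) read 473 (PAX2-labelled) against 496 (control), and PCDHB9 (BC105636) 413 (PAX2-labelled) against 408 (control), a difference of 0.02 that turned negative when the arrays were centred, quantile normalised or loess corrected. Of these 7 features 5 were above 0 and 2 below, with a median of 0.16. PCDHB14 read 148 on the PAX2-labelled array and 134 on the control array, above the silent limit on the PAX2-labelled array and just within it on the control array. The remaining PCDHB genes (PCDHB1, PCDHB2, PCDHB4, PCDHB6, PCDHB8, PCDHB10, PCDHB11, PCDHB12, PCDHB15 and PCDHB18P) read at most 128 on the PAX2-labelled array and 117 on the control array, both at PCDHB15. The genes are close paralogs, and whether probes of one also bind transcripts of another was not tested, since probe sequences were not used here.

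In most PCDHB genes with a bright feature, the features of the gene lay much further apart in level than the arrays did. Of 11 genes with 2 features 7 had one above the silent range, and in 6 of these the other feature was more than 10-fold dimmer. The features of PCDHB3 read 2231 and 32.9 on the PAX2-labelled array and 1908 and 27.1 on the control array. Those of PCDHB7 read 960 and 18.2 on the PAX2-labelled array, against 1333 and 11.0 on the control array. Those of PCDHB16 read 1416 and 55.6 on the PAX2-labelled array, against 1267 and 52.7 on the control array. Both arrays gave the same order in every one of the 7 genes. In 6 of the 7 the dim feature's annotated end lay further downstream than that of the bright one, by 341 bases (PCDHB16) to 1317 bases (PCDHB9). In 5 of the 7 the dim feature was the RefSeq transcript and the bright one a cDNA clone. Over all 10 PCDHB genes with 1 RefSeq and 1 other feature, the other was over 10-fold brighter in 5, or 50%, beside 3.50% of the 6285 such genes on the array. Outside PCDHB the count was 1 of 24 cadherin and protocadherin genes. The positions of the probes within the transcripts are not given, and their part in this was not tested. PCDHB1, PCDHB6, PCDHB8, PCDHB10 and PCDHB15 had a RefSeq feature only, which lay within the silent range in each. Whether a feature of another type would read brighter in them is not known.

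**Figure D4:**
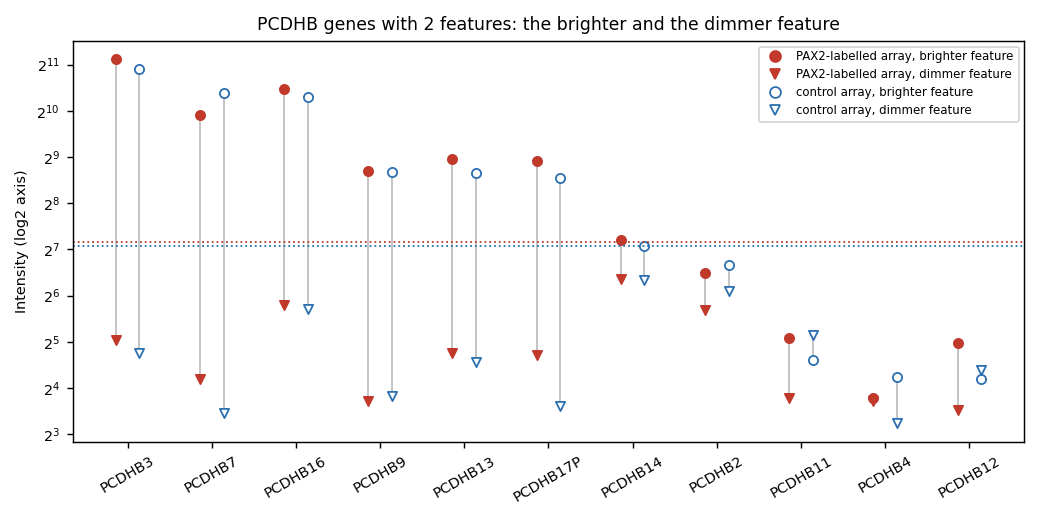
Intensity on a log2 axis of the brighter (circle) and dimmer (triangle) feature of the 11 PCDHB genes with 2 features, with red filled marks for the PAX2-labelled array, blue open marks for the control array, a grey line joining the features of a gene and dotted lines at the top of the silent range. In PCDHB3, PCDHB7, PCDHB16, PCDHB9, PCDHB13 and PCDHB17P the features lie over 10-fold apart on both arrays.

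Upstream of the PCDHB starts lies a shared stretch, shown because this is the cluster with bright features. The 300 bases around each start were searched for the run of 10 bases held by most genes of a cluster. For PCDHB this gave GGTGGCGCTG. Where runs tied, the one rarest over all promoters, those of PCDHB among them, was taken, which favours a low share in the table. Counted on both strands, GGTGGCGCTG occurred in 12 of the 14 PCDHB genes with an entry and in 0.276% of all 35116 promoters. It contains CGCT, the letters for which the conserved box of clustered protocadherin promoters is named, and CTCF binds around that box. CGCT alone occurred in all 14 PCDHB genes with an entry and in 70.0% of the promoters of the table. The windows below are from GRCh38.p14 chromosome 5, with the shared run in capitals. The first 6 genes had a feature above the silent range, and the last 3 had none. In PCDHB3, PCDHB7, PCDHB9, PCDHB13 and PCDHB16 that feature was a cDNA clone, and the RefSeq feature lay within the range. PCDHB5 was bright with a RefSeq feature, its only one. PCDHB10 also had a RefSeq feature only, and whether the type of feature decides such a call was not tested.
PCDHB3 (chr5:141100384-141100433, plus strand): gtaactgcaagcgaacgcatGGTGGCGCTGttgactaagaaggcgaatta
PCDHB5 (chr5:141135170-141135205, plus strand): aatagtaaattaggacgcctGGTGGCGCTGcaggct
PCDHB7 (chr5:141172557-141172606, plus strand): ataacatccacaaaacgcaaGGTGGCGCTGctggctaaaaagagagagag
PCDHB9 (chr5:141187065-141187114, plus strand): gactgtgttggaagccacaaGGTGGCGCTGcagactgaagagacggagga
PCDHB13 (chr5:141213856-141213905, plus strand): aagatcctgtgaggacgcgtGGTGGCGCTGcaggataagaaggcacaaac
PCDHB16 (chr5:141182301-141182350, plus strand): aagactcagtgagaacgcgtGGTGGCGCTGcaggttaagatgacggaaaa
PCDHB2 (chr5:141094535-141094584, plus strand): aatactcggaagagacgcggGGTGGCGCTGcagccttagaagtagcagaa
PCDHB4 (chr5:141121714-141121763, plus strand): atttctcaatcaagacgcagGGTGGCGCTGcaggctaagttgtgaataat
PCDHB10 (chr5:141192290-141192339, plus strand): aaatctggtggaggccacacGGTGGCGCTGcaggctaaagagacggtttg
The run was present in 6 of 7 PCDHB genes with a feature above the silent range and in 6 of 7 without one. PCDHB14, with a feature above the range on 1 array, and PCDHB1, without one, lacked it. The run was chosen as the one held by most PCDHB genes, so few of them could lack it. The comparison therefore cannot decide whether its presence goes with level. The run lay between 6 and 74 bases before the start, except in PCDHB8, where it overlaps the start.

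The alpha and gamma clusters had runs of their own, chosen by the same rule. ATGATGTCGC occurred in 8 of 13 PCDHA genes and in 0.0313% of all promoters, and GCGCCGCTGT in 9 of 20 PCDHG genes and in 0.131% of all promoters. Neither occurred in a promoter of another cluster, nor did the PCDHB run. The rule for ties also favours such an absence. The windows below show 3 genes of each, in which the shared stretch goes on past the capitals.
PCDHA1 (chr5:140786075-140786124, plus strand): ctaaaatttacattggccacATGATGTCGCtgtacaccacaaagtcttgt
PCDHA5 (chr5:140821531-140821580, plus strand): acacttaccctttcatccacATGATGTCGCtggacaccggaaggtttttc
PCDHA12 (chr5:140875233-140875282, plus strand): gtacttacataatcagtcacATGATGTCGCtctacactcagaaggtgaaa
PCDHGA7 (chr5:141382641-141382690, plus strand): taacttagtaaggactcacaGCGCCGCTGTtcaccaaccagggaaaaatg
PCDHGA9 (chr5:141402706-141402755, plus strand): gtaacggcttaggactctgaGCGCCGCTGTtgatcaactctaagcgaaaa
PCDHGB5 (chr5:141397855-141397904, plus strand): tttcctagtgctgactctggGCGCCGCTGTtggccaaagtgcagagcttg
All of these genes were within the silent range on both arrays. The computed differences of PCDHA5, PCDHGA7 and PCDHGB5 were among those past 2-fold in at least 1 feature. PCDHGB5 read 14.2 on the PAX2-labelled array and 83.7 on the control array with BC093877, and 15.1 (PAX2-labelled) and 18.7 (control) with NM_032099. PCDHGA7 read 21.3 (PAX2-labelled) and 68.4 (control). PCDHGA2 was the opposite case, with 82.0 (PAX2-labelled) and 18.8 (control) by NM_032009 and 17.9 (PAX2-labelled) and 22.6 (control) by BC093871. Features also differed in sign in PCDHGA1, PCDHGA5 and PCDHGA10. PCDHGA1 read 86.5 (PAX2-labelled) against 66.4 (control) and 16.3 (PAX2-labelled) against 16.6 (control). PCDHGA10 read 24.4 (PAX2-labelled) against 19.1 (control) and 19.0 (PAX2-labelled) against 45.3 (control). PCDHGA5 read 28.7 (PAX2-labelled) against 15.8 (control) and 12.1 (PAX2-labelled) against 18.2 (control). PCDHGA3, one of the brighter genes of the gamma cluster by its mean, had 81.8 (PAX2-labelled) and 52.5 (control), also within the silent range. In PCDHGB5 and PCDHGA2 a second feature of the same gene did not show the difference.

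Features of the same gene often disagreed. Of the 51 genes with several features, 22 had all features on the same side of 0 and 29 did not. In 14 some features lay above the silent range and others within it. The same shares over the 11860 genes of the array with several features are not given here. These counts are therefore not a trait of the set. The SD of the difference that 1 feature carries, from features of the same gene, was 0.78 on the log2 scale over these genes, 0.57 over all genes and 0.32 over the genes that passed the filter. It holds the error of features and not that of cultures or hybridisations. The bright features of CDH2, PCDH1, PCDH17 and PCDHB7 differed by more than 0.32 in size, as deposited and with centring, loess or quantile normalization. Those of CDH13 and PCDHB17P did so as deposited, both at 0.36, but came to 0.31 with loess and with quantile normalization. That of CDH3 was -0.29 as deposited, -0.35 with loess and -0.34 with quantile normalization. The 0.32 is 1 SD over genes that passed the filter, which PCDH17, PCDHB7, PCDHB17P and CDH3 did not pass as genes. The share of all bright features that differ by as much is not given here, so passing 0.32 does not set these features apart.

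By class, medians over every gene were small and mostly of genes within the silent range. The median difference was -0.17 for classical cadherins, 0.06 for type II, 0.31 for other CDH genes and 0.19 for non-clustered protocadherins. It was 0.22 for PCDHA, 0.05 for PCDHB and 0.15 for PCDHG, and 0.10 over all 92 genes, beside 0.01 over all genes of the array.

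None of the partners of cadherins that passed the filter differed 2-fold, and only 1.25% of all genes that passed it did, so these counts are near the background. Of 12 catenins and adaptors 8 passed the filter, 3 of them above 0 and 5 below, with a median of -0.05. Beta-catenin, CTNNB1, which also carries Wnt signals, read 1131 on the PAX2-labelled array and 789 on the control array, a log2 difference of 0.52. Alpha-catenin, CTNNA1, which links to actin, averaged 22130 (PAX2-labelled) and 17298 (control) over its features, and plakoglobin, JUP, 42350 (PAX2-labelled) and 33159 (control). Their features ranged from 0.06 to 0.65 for CTNNA1 and from 0.07 to 0.61 for JUP. p120-catenin, CTNND1, which keeps cadherins at the membrane, averaged 5502 (PAX2-labelled) and 5783 (control). CTNNAL1, a relative of alpha-catenin, averaged 1199 (PAX2-labelled) and 1572 (control), a difference of -0.39. CTNND2, a neural relative of p120-catenin that did not pass, read 112 (PAX2-labelled) and 41.9 (control), within the silent range. Of 12 repressors of cadherin genes 6 passed, 4 above 0 and 2 below, and the median was 0.17. SNAI2, or Slug, had the largest difference of them, 505 (PAX2-labelled) against 403 (control), a difference of 0.32.

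No gene of the lists for cleavage or for the protocadherin clusters passed 2-fold either, beside the 1.25% of all genes that passed the filter. All 11 genes of cadherin cleavage and trafficking passed the filter, with a median of 0.14. ADAM17, a sheddase, read 827 on the PAX2-labelled array and 618 on the control array. All 15 regulators of the protocadherin clusters passed, with a median of -0.01. CTCF averaged 1169 (PAX2-labelled) and 1196 (control), and SETDB1, a histone methyltransferase that represses the clusters in mouse neurons, 2107 (PAX2-labelled) and 1696 (control). In both genes the features differed in sign, from -0.32 to 0.26 for CTCF and from -0.03 to 0.66 for SETDB1. A list of 25 further names of the cadherin superfamily, which shares CDHR1 with the genes above, had 7 that passed, with a median of 0.11. CLSTN3, a calsyntenin, had the largest difference, 1812 (PAX2-labelled) against 1325 (control), and its features ranged from 0.03 to 1.21.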

How the data were processed

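Total RNA of the 2 TE-1 samples was read on 1 array each. The authors summarised the arrays with RMA, per the submitters' processing notes, and deposited intensities on the linear scale. Which RMA version and which normalization were used is not given in the sources used here. A count of probes behind each feature is also deposited and was 3 for 45031 of 45033 features. A deposited standard error of unstated meaning was not used. Coordinates are on HG18, which the annotation column of the deposited files names.

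Features were named by gene identifier through the RefSeq table (GRCh38.p14), which matched 38916 of the 42947 features that have one and all 92 genes described. Log2 intensities of a gene's features were averaged, and differences are the PAX2-labelled minus the control array, with no pseudocount and no further normalization. A gene passed the filter when its mean over both arrays reached the median feature. A fold against a value in the silent range is given as a lower bound, against the 95th percentile of 376 olfactory receptor genes on that array. With 1 array per group there is no p-value, and precision is limited by the number of arrays. The labels do not say how many cultures were made.

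Genes named in detail are every classical cadherin, the 12 brightest genes, the 3 largest increases and decreases above the silent range, the 2 brightest genes per cluster, genes whose features differ in sign or by over 1, and 1 or more genes per partner list. Other genes, such as CDH8, CDH19, PCDH12 and PCDHB13, were named after their values were seen. The members and lists were chosen with earlier results of these data known. The Y-linked PCDH11Y is counted and its level is not given. Counting was tested on simulated data. Python 3.11.15 was used with pandas 2.3.3, numpy 2.4.6, statsmodels 0.14.6 and matplotlib 3.10.9. Alternatives were an offset of 64, the brightest feature, loess (fraction 0.3), quantile normalization, centring, the series table, other filters and thresholds, and other limits of the silent range.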

Additional observations from a re-analysis of the deposited data

How the results depend on the processing

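No paired analysis was possible because there was 1 array per condition. No 2-fold call was made among the 7 genes that passed the filter. Without the filter 4 genes were higher and 7 lower, and with a filter on at least 1 array 1 was higher (CDH8) and 1 lower (CDH22). Over all genes the 74 higher and 67 lower became 44 and 47 with an offset of 64, and 757 and 965 with no filter. They became 126 and 122 with the brightest feature, 132 and 135 with a filter on at least 1 array, and 11 and 7 with a filter at the 75th percentile. With a threshold of 1.5-fold they were 417 and 250, and with 3-fold 8 and 22. The 11 genes above the silent range became 19 with the brightest feature, 5 with the 99th percentile and 37 with 2 times the random-sequence probes. With only genes above the silent range on both arrays, the median difference was -0.56 for classical cadherins, -0.43 for non-clustered protocadherins and 0.0042 for all members, on 1, 1 and 7 genes. The median of the non-clustered protocadherins was 0.033 with an offset of 64 and -0.081 with the brightest feature, that of PCDHA 0.044 with the offset, and that of PCDHG -0.13 as a mean. Feature counts of 15 higher and 11 lower became 1 and 2 with an offset of 64, and 0 and 0 above the silent range on both arrays, settings chosen after seeing the data. The filters and thresholds change how many genes are counted, and for the other settings the cause was not tested. Of 336 recomputed values of single genes 38 moved, 27 of them with the brightest feature and 11 with the offset, and none among the rescalings.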
